A study of Homo sapiens with 11 samples.

Results

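The forkhead box O (FOXO) transcription factors and a set of genes that respond to them were followed in a breast cancer cell line treated with tumour necrosis factor (TNF), with apigenin, or with both. The members were chosen by gene symbol, with earlier results of these data known. They were the factor genes FOXO1, FOXO3 and FOXO4, and the responsive genes BCL6, PDK4, CITED2, IRS2, TXNIP, SESN1 and KLF6. That makes 10 genes of the 22395 that had a probe set of their own on the array. Of these 10, 9 passed the filter on low values that 15865 genes passed. TXNIP was the exception. The cells were MDA-MB-468, a line started from a pleural effusion of a patient with breast cancer. It stands here for 1 cell line of epithelial origin. Total RNA of 11 samples was hybridised to 11 GeneChip Human Gene 2.1 ST arrays, which read many probes along each transcript. The groups were TNF (40 ng/ml) plus apigenin (40 µM) with 3 arrays, apigenin (40 µM) alone with 2 arrays, TNF (40 ng/ml) alone with 3 arrays, and untreated control cells with 3 arrays. All were harvested after 24 h, and both agents had been prepared in a buffered salt solution. The labels number the arrays within a group and do not name separate cultures, so the p-values measure only the spread between arrays, which may be technical.

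FOXO factors are forkhead DNA-binding proteins that act at the end of the insulin and growth factor pathway. When phosphatidylinositol 3-kinase (PI3K) is active, its downstream kinase AKT phosphorylates FOXO proteins, which are then held in the cytoplasm by 14-3-3 proteins, and when the pathway is quiet they enter the nucleus and switch on genes of cell cycle arrest, stress resistance, fasting metabolism and apoptosis. FOXO activity is therefore set largely by the location of the protein, which an array of RNA does not measure. Apigenin is a flavone of parsley and chamomile known as a kinase inhibitor, and TNF is a cytokine that activates NF-κB and the stress kinases.

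With apigenin, BCL6, PDK4 and CITED2 fell to 45.3%, 46.5% and 46.7% of their control levels. With TNF plus apigenin BCL6 and PDK4 fell, to 48.3% and 53.2% of control. TNF alone changed none of the members in the test, and FOXO1, FOXO3, FOXO4, IRS2, SESN1 and KLF6 passed it in no comparison.

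Levels are the deposited log2 values of a gene's probe set, so a difference of 1 is a doubling, and the levels of different genes cannot be compared because each probe set binds with its own strength. The labelled epithelial origin was checked against marker genes. All 6 epithelial markers had a mean above a floor of 2.53, which is the median over probe sets of their mean level, with means between 4.18 for KRT8 and 10.79 for EGFR, whereas the hormone receptor genes ESR1 (2.35) and PGR (1.49) lay below it. Of the epithelial markers 1 was called in a comparison, and the list's mean ran between 7.25 and 7.44 with TNF plus apigenin, 7.32 and 7.51 with apigenin, 7.41 and 7.63 with TNF and 7.61 and 7.79 in control. Markers of other cell types were not all silent. In the macrophage list PTPRC (1.46), CD163 (1.78) and MRC1 (1.73) lay below the floor while CD14, CD68 and CSF1R lay above it, and 1 of the 6, CD14, was called in a comparison. The mean level of that list ran between 3.08 and 3.33 with TNF plus apigenin, 3.10 and 3.20 with apigenin, 3.18 and 3.26 with TNF and 3.46 and 3.63 in control, so it was lower in every treated group. In the endothelial list VWF (1.87) and TEK (2.17) lay below the floor, and EGFL7 (3.48), KDR (3.76) and CDH5 (3.44) lay above it, of which KDR and CDH5 were called. That list's mean ran between 2.82 and 2.86 with TNF plus apigenin, 2.54 and 2.60 with apigenin, 3.12 and 3.32 with TNF and 2.90 and 3.08 in control, so it was lower in both groups with apigenin and higher with TNF. In the fibroblast and lymphocyte lists COL1A1 (3.34) and CD79A (3.30) lay above the floor, the other measured genes lay below it, and no gene was called. The part of these markers in the results was not tested. The labels name 1 cell line, so the lists are not read as counts of other cell types. CD14 gave -1.22 with TNF, -2.06 with apigenin and -1.97 with TNF plus apigenin, each against control. In bulk RNA, fewer cells with a gene's RNA and less of it per cell cannot be told apart.

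The first of the 2 apigenin arrays stood apart in its distribution. Array medians over the tested genes were 3.89 for the first apigenin array and 4.16 for the second, and between 4.08 and 4.32 on the other 9 arrays. The first apigenin array also had the narrowest interquartile range, 2.4, against 2.63 to 2.91 on the others. The median change over all tested genes in apigenin against control was -0.18, so changes in that comparison are also given relative to this shift. Of the 581 genes called there at an adjusted p under 0.05, 94.0% were lower, and the share of lower calls was 75.5% after quantile normalization and 70.7% after each array was shifted to the same median. In TNF plus apigenin against apigenin the share of lower calls was 7.69%, against 18.8% and 19.5% under the same 2 scalings.

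None of the FOXO factor genes among the members passed the test in any comparison. FOXO1, the factor that drives gluconeogenic genes in liver, had levels of 3.56, 3.39 and 3.38 with TNF plus apigenin, 3.28 and 3.62 with apigenin, 3.49, 2.97 and 3.35 with TNF, and 3.38 on all 3 control arrays. The groups overlapped, and the lowest value belonged to a TNF array. The 3 control values and 1 of the TNF plus apigenin values were the same to the last deposited digit, so the control spread of 0 is an equality of summarised values and not a measure of precision. Of the 15865 tested genes, 72 (0.454%) had 3 equal control values. In apigenin against control FOXO1 differed by 0.07 (95% interval -0.36 to 0.49), and in TNF against control by -0.11 (-0.49 to 0.26).

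FOXO3, the family member best known for inducing apoptosis and autophagy genes, had the largest SD of the members within the TNF plus apigenin, TNF and control groups. Its levels were 5.29, 5.46 and 4.64 with TNF plus apigenin, 3.91 and 4.49 with apigenin, 4.50, 5.54 and 4.94 with TNF, and 4.83, 4.18 and 5.38 in control. Both apigenin arrays lay below all 3 arrays of TNF plus apigenin, and the higher of them lay above the lowest control array. The difference between TNF plus apigenin and apigenin was 0.93 (95% interval 0.17 to 1.69), with a limma adjusted p of 0.234. Apigenin against control gave -0.60 (-1.36 to 0.17). FOXO3 was the only member with more than 1 probe set. Its second, dimmer probe set read 2.62 to 2.87 with TNF plus apigenin, 2.30 and 3.09 with apigenin, 2.76 to 2.94 with TNF and 2.74 to 2.96 in control, and there the 2 apigenin arrays were the lowest and the highest of all 11.

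FOXO4, a factor linked to cell cycle exit, read 3.32, 3.16 and 2.76 with TNF plus apigenin, 2.73 and 3.23 with apigenin, 3.45, 2.71 and 3.46 with TNF, and 3.95, 3.04 and 3.34 in control. The groups overlapped, and the estimate was below 0 in every comparison with control, from -0.24 with TNF to -0.46 with apigenin. FOXO6, the remaining gene of the family and no member here, was called lower with apigenin (-0.80, SE 0.21, limma adjusted p 0.0488) and with TNF plus apigenin (-0.75, SE 0.19, 0.0444), both against control. Its levels were 4.07 and 4.66 with apigenin and 5.07 to 5.27 in control. Both FOXO6 calls lay close to the threshold. Of the 11 fits with 1 array omitted, the apigenin call was kept only in that without the second apigenin array, and without the first the value was -0.50 (adjusted p 0.402). It was also lost after quantile normalization (-0.60, adjusted p 0.119) and the median shift (-0.59, 0.137). The call with TNF plus apigenin was missing in 9 of the 11 fits with 1 array omitted, at values between -0.65 and -0.83.

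**Figure D1:**
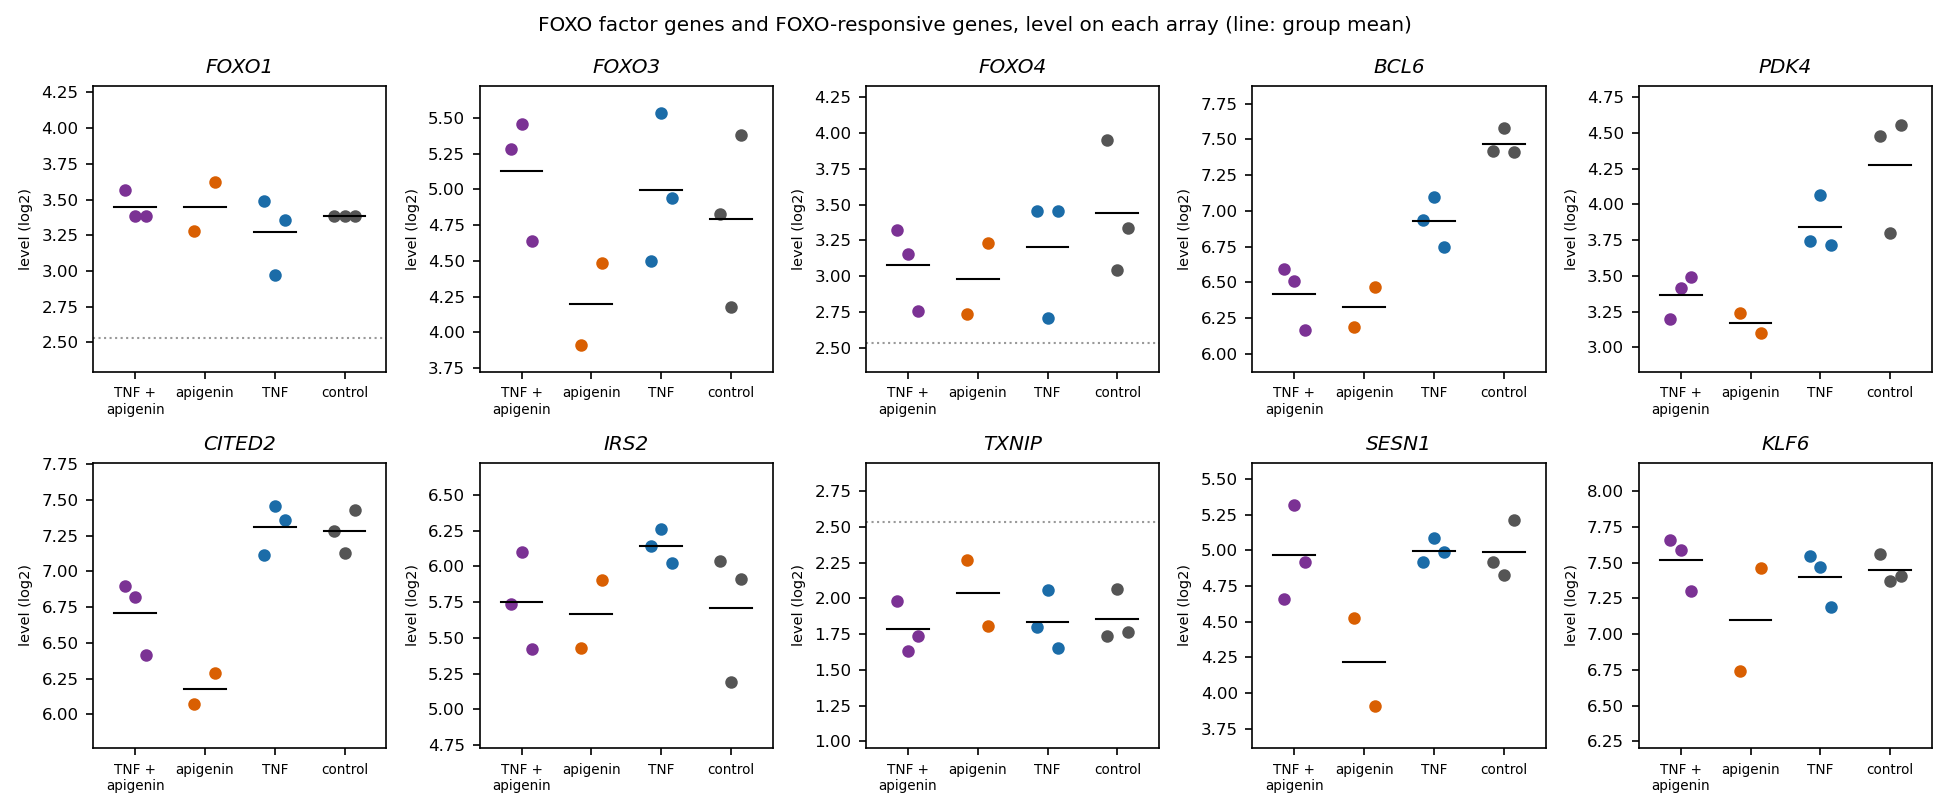
Level on each array (log2 of the probe set value) of the 10 member genes, by group, with a line at the group mean and a dotted line at the floor of 2.53 where it falls in the panel. BCL6, PDK4 and CITED2 are lower on both apigenin arrays than on all 3 control arrays, TXNIP lies below the floor throughout, and the FOXO genes overlap between apigenin and control.

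The members' promoters were read from the RefSeq table (GRCh38.p14), which held a window of 250 bases before the start for each of 19 annotated starts of the 10 members. They were searched on both strands for GTAAACA, the core that FOXO proteins bind, for CAAAACA, the insulin response variant, and for AAACA, which lies within both and is counted wherever they occur. Over all 35116 windows in the table GTAAACA occurred in 2.98%, CAAAACA in 4.3% and AAACA in 40.4%. Among the 19 member windows, 1 held GTAAACA (TXNIP), 1 held CAAAACA (IRS2) and 9 held AAACA. None of the windows of BCL6, PDK4 or CITED2, the 3 members that changed, held either longer motif. The window of BCL6 with AAACA, that of PDK4, the first of the 3 listed for CITED2, and the 2 windows with a longer motif are shown on the minus strand, 5′ to 3′, with matches to any of the 3 motifs or to their reverse complements in capitals. BCL6, PDK4 and CITED2 are shown because they changed, IRS2 and TXNIP because they hold the longer motifs. The windows stand at chr3:187736502-187736751 (BCL6), chr7:95596517-95596766 (PDK4), chr6:139374649-139374898 (CITED2), chr13:109786584-109786833 (IRS2) and chr1:145996580-145996829 (TXNIP).
BCL6: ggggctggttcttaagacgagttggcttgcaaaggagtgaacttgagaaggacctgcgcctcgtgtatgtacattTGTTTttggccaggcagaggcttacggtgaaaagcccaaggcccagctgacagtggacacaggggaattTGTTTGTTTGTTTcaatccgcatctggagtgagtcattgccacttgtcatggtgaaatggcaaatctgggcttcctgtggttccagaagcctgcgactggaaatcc
PDK4: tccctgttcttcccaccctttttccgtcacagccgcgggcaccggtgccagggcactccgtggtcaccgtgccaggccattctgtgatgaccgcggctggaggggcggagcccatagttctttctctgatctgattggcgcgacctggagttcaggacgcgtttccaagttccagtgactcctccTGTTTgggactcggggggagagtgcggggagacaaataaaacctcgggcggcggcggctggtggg
CITED2: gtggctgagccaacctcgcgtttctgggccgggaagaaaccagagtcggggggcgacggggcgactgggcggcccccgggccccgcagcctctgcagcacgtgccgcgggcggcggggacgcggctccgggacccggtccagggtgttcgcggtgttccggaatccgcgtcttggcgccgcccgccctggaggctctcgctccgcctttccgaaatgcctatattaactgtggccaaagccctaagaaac
IRS2: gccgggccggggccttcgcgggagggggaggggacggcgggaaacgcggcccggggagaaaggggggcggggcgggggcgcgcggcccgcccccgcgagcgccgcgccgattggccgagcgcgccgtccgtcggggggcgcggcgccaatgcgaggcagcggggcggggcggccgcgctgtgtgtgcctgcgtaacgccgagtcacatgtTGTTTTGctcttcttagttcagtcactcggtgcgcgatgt
TXNIP: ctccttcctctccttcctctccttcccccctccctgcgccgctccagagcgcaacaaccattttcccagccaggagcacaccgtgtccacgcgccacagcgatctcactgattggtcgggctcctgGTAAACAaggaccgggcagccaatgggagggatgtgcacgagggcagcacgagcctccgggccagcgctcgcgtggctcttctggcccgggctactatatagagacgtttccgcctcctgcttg
BCL6 shows 4 copies of the short motif, 3 of them overlapping in 1 run, before the second of its listed starts, and PDK4 shows 1. CITED2 shows none. The CAAAACA of IRS2, on the other strand, begins 40 bases before the start of the gene, and the GTAAACA of TXNIP begins 124 bases before it. The windows cover only the last 250 bases before each start, and no match says only that these letters are not in this window.

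BCL6, a zinc finger repressor that blocks differentiation and DNA damage checkpoints, was called lower than control with apigenin and with TNF plus apigenin. Its levels were 6.59, 6.51 and 6.16 with TNF plus apigenin, 6.19 and 6.47 with apigenin, 6.93, 7.10 and 6.75 with TNF, and 7.42, 7.58 and 7.41 in control. Every treated array was below every control array, and the TNF arrays lay between the control arrays and those with apigenin. BCL6 averaged 6.33 ± 0.20 with apigenin (SD, n = 2) and 7.47 ± 0.10 in control (SD, n = 3). Apigenin against control gave -1.14 (SE 0.20, limma adjusted p 0.00631), which is 45.3% of the control level, or -0.97 relative to the median of all genes. TNF plus apigenin against control gave -1.05 (SE 0.18, adjusted p 0.00451), 48.3% of the control level. TNF plus apigenin against TNF gave -0.51 (limma adjusted p 0.255) and was not called. TNF alone gave -0.54 (95% interval -0.92 to -0.17) with an adjusted p of 0.321, so BCL6 was not called there. The call in TNF plus apigenin held in all 20 alternative settings, while the call in apigenin alone was lost without the first apigenin array (-1.002, adjusted p 0.0838) and when only the 5 arrays compared were fitted (adjusted p 0.0508).

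PDK4, a mitochondrial kinase that shuts down pyruvate dehydrogenase and so spares glucose in fasting, showed the same order. Its levels were 3.20, 3.41 and 3.49 with TNF plus apigenin, 3.24 and 3.10 with apigenin, 3.74, 4.06 and 3.72 with TNF, and 4.48, 3.80 and 4.55 in control. All 5 arrays with apigenin lay below all 6 without it. The second control array was far below the other two and within the TNF range, so control and TNF overlapped. PDK4 fell by 1.10 on the log2 scale with apigenin against control (SE 0.23, limma adjusted p 0.0171), to 46.5% of the control level, or -0.93 relative to the median of all genes. With TNF plus apigenin it fell by 0.91 (SE 0.21, adjusted p 0.0282), to 53.2% of the control level. PDK4 lost its calls in more settings than the other two. The apigenin call was lost without the first control array (-1.01, adjusted p 0.0808), without the third (-0.97, 0.0771), without the first apigenin array (-1.17, 0.0977) and with only the compared arrays (0.0982), and the call with TNF plus apigenin was lost without control array 1 or 3 or any 1 of the 3 arrays of TNF plus apigenin, with values between -0.77 and -0.97 and adjusted p-values between 0.0587 and 0.13, and with only the compared arrays (-0.91, 0.0544).

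CITED2, a coactivator partner that competes with hypoxia-inducible factor for CBP and p300, differed from the previous pair in the TNF arrays. It read 6.90, 6.82 and 6.42 with TNF plus apigenin, 6.07 and 6.29 with apigenin, 7.12, 7.46 and 7.36 with TNF, and 7.28, 7.13 and 7.43 in control. TNF and control arrays overlapped fully, the apigenin arrays were the lowest, and the arrays with both agents lay between. CITED2 fell by 1.10 on the log2 scale with apigenin against control (SE 0.20, limma adjusted p 0.00975), to 46.7% of the control level, or -0.92 relative to the median of all genes. With TNF plus apigenin the difference from control was -0.57 (95% interval -0.96 to -0.18, adjusted p 0.121) and from TNF alone -0.60 (-0.99 to -0.21, adjusted p 0.169). Neither passed the test as deposited. TNF plus apigenin against control was called for CITED2 after quantile normalization (-0.53, adjusted p 0.0406), after the median shift (-0.57, 0.0239) and with array weights (-0.56, 0.0328). The apigenin call was lost without the first apigenin array (-0.99, adjusted p 0.103) and with only the compared arrays (0.0574).

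**Figure D2:**
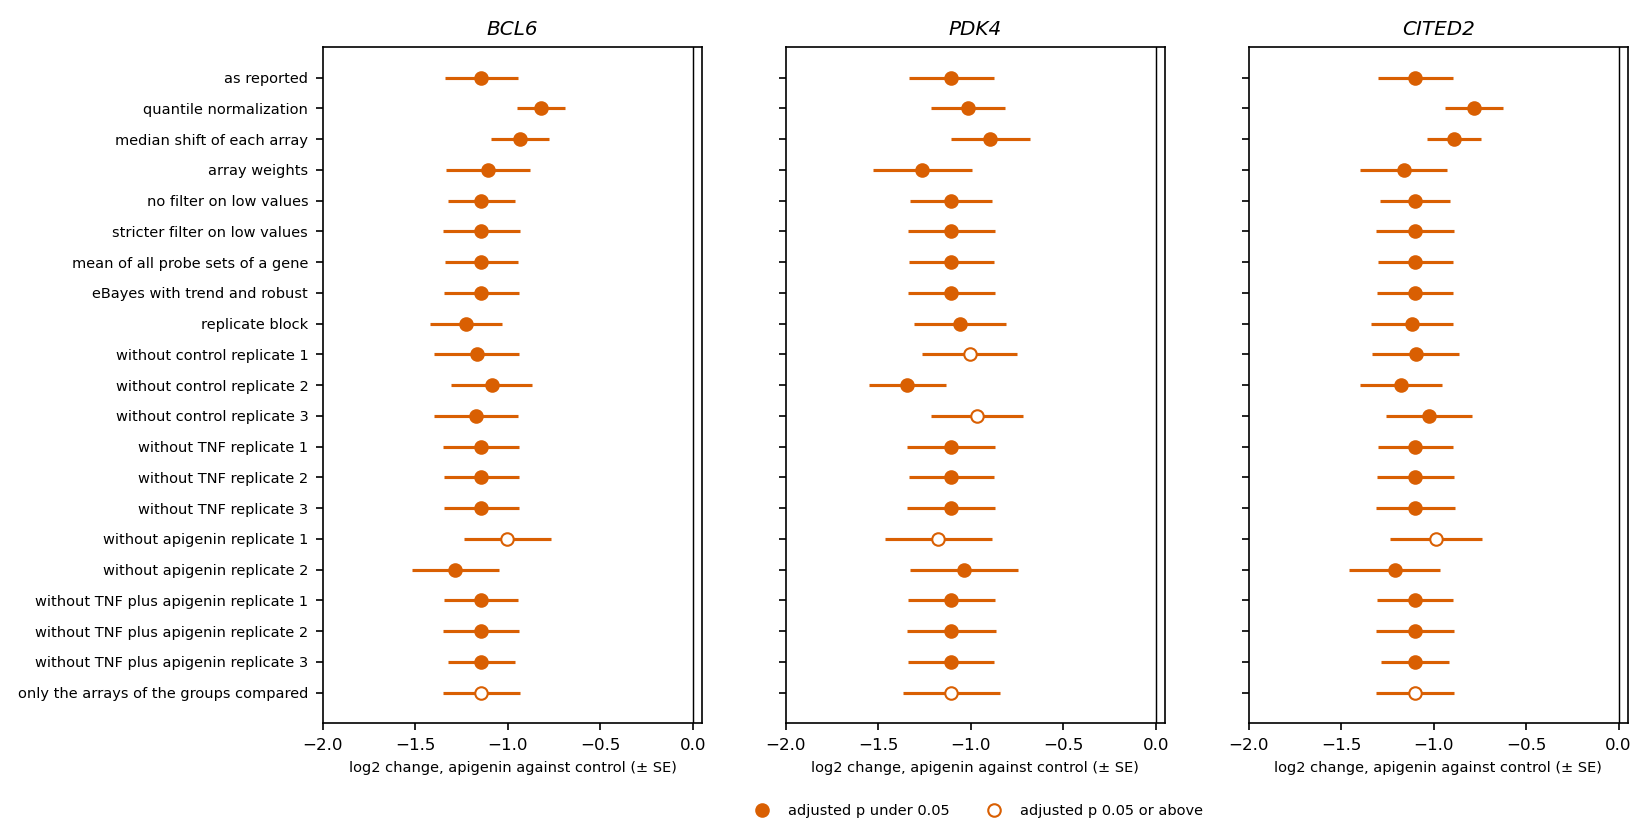
Log2 change with apigenin against control, ± SE, of BCL6, PDK4 and CITED2 as reported and in each of the 20 alternative settings, with open points where the adjusted p was 0.05 or above. All estimates lie between -1.34 and -0.78, and the setting without the first apigenin array and the fit of only the compared arrays have open points in all 3 panels.

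The other 4 responsive genes did not pass the test in any comparison. SESN1, a stress-induced inhibitor of mTORC1 signalling, read 4.66, 5.32 and 4.92 with TNF plus apigenin, 4.52 and 3.91 with apigenin, 4.92, 5.08 and 4.99 with TNF, and 4.92, 4.83 and 5.21 in control. Both apigenin arrays lay below all others. Its difference with apigenin was -0.77 (95% interval -1.27 to -0.27, limma adjusted p 0.0841) against control, and TNF plus apigenin differed from apigenin by 0.75 (0.25 to 1.25, adjusted p 0.156).

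IRS2, an adaptor that links the insulin receptor to PI3K, read 5.73, 6.10 and 5.42 with TNF plus apigenin, 5.43 and 5.90 with apigenin, 6.14, 6.26 and 6.02 with TNF, and 6.04, 5.19 and 5.91 in control. The TNF arrays were close together and high, but 1 control array and 1 array of TNF plus apigenin lay among them. TNF against control gave 0.43 (95% interval -0.08 to 0.94), and apigenin against control gave -0.05 (-0.62 to 0.52). KLF6, a zinc finger factor of the Krüppel-like family, read 7.66, 7.59 and 7.30 with TNF plus apigenin, 6.74 and 7.46 with apigenin, 7.55, 7.47 and 7.19 with TNF, and 7.56, 7.37 and 7.41 in control. Only the first apigenin array stood out, below the other 10. Apigenin against control gave -0.35 (-0.82 to 0.13) for KLF6.

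TXNIP, the thioredoxin-binding arrestin that limits glucose uptake, was below the floor of 2.53 on every array and was not tested. It read 1.98, 1.63 and 1.74 with TNF plus apigenin, 2.27 and 1.81 with apigenin, 1.80, 2.06 and 1.66 with TNF, and 1.73, 2.07 and 1.77 in control. The groups overlapped, and its promoter is the one shown above with the full FOXO core. No detection calls were used here, so whether TXNIP RNA was present was not settled.

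The members' calls all fell in the comparisons of apigenin, with or without TNF, against control. Because the members were chosen with earlier results of these data known, the counts below describe them and test nothing. In apigenin against control 3 of the 9 tested members were lower and 0 higher, where 3.66% of all tested genes were called and 3.44% were called lower. Of the 9, 4 had no overlap between groups on the low side, against 26.9% of all genes, and 4 were lower at an unadjusted p under 0.05, against 17.5%. In all, 8 of 9 estimates were below 0, as were those of most tested genes, whose 75th percentile was 0.03. The members' median was -0.60, and that of all genes -0.18. With both agents against control 2 of 9 were lower, where 2.82% of all genes were called and 1.78% were called lower, and 3 were below without overlap, against 11.4%. There the members' median and that of all genes were both -0.02.

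Between TNF plus apigenin and TNF, limma called 0 of 9 members at an adjusted p under 0.05, where 1.07% of all genes were called, and 3 members (BCL6, PDK4 and CITED2) were lower at an unadjusted p under 0.05, against 5.2% of all genes. All 3 of those had every array of TNF plus apigenin below every TNF array, which 7.05% of genes had. BCL6 differed by -0.51 (95% interval -0.88 to -0.13, adjusted p 0.255) and PDK4 by -0.47 (-0.91 to -0.03, adjusted p 0.4). Quantile normalization brought BCL6 (-0.52, adjusted p 0.0332) and CITED2 (-0.61, 0.0369) past the threshold, and the median shift brought CITED2 (-0.65, 0.0212).

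TNF against control called 0 of 9 members with limma, where 0.7% of all genes were called, and 1 member, BCL6, was lower at an unadjusted p under 0.05, against 4.59% of genes. BCL6 was also the only member whose TNF and control arrays did not overlap, against 8.72% of genes on that side. TNF plus apigenin against apigenin called 0 members with limma, where 0.574% of all genes were called. FOXO3, CITED2 and SESN1 were higher there at an unadjusted p under 0.05 and without overlap, against 14.1% and 20.9% of all genes. TNF plus apigenin against apigenin shares its apigenin arrays with apigenin against control, so the low apigenin arrays of CITED2 and SESN1 enter both. TNF against control shares its control arrays with apigenin against control. Values for a gene are therefore not independent between comparisons that share arrays.

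Whether the effect of apigenin depended on TNF was asked with the interaction term, which takes the change with TNF in untreated cells from that in apigenin-treated cells. Limma called 0 of the 9 members, where 0.0252% of all genes were called, and 2 were above 0 at an unadjusted p under 0.05, against 7.14% of genes. The estimate was 0.64 for BCL6 (95% interval 0.07 to 1.20, adjusted p 0.592) and 0.74 for SESN1 (0.07 to 1.41, adjusted p 0.596). PDK4 had 0.63 (-0.03 to 1.29) and CITED2 0.50 (-0.08 to 1.08). The median over all genes was itself 0.23, and relative to it BCL6 had 0.41 and SESN1 0.51. A difference in the apigenin effect with TNF was not shown for any member.

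**Figure D3:**
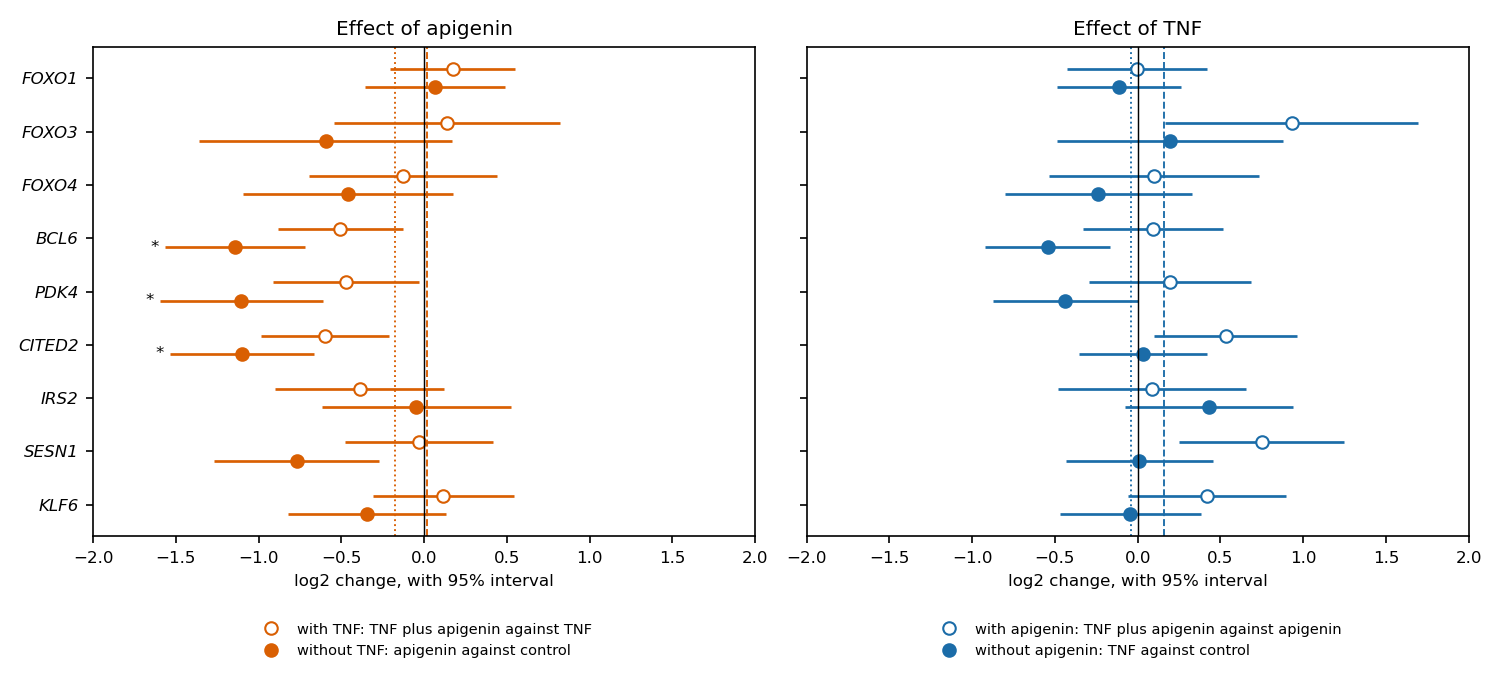
Log2 changes of the 9 tested members with 95% intervals: on the left apigenin against control (filled) and TNF plus apigenin against TNF (open), on the right TNF against control (filled) and TNF plus apigenin against apigenin (open). Dotted (filled points) and dashed (open points) lines mark the median change of all tested genes, and an asterisk marks an adjusted p under 0.05, which BCL6, PDK4 and CITED2 have in apigenin against control.

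A wider list of 45 FOXO-responsive genes, which includes 7 of the members, was measured as well. Like the members, it was chosen with earlier results of these data known. Of the 45 genes, 42 had a probe set of their own and 34 were tested. In apigenin against control, where 3.66% of all tested genes were called and 3.44% were called lower, 0 of the list rose, 5 fell and 29 did not pass the test, with a median of -0.36 against -0.18 for all genes. Without the members, 2 of the 28 tested genes fell and 0 rose, with a median of -0.36. Besides BCL6, PDK4 and CITED2 the genes that fell were TNFSF10, which encodes the death ligand TRAIL, and PINK1, the kinase that marks damaged mitochondria. PINK1 was named after its values were seen. FBXO32, a ubiquitin ligase of muscle wasting also named after its values were seen, had -1.10 (SE 0.31) without passing the test (adjusted p 0.0652). Nor did it pass with TNF plus apigenin against TNF (-1.21, SE 0.28, 0.0546) or with TNF against control (1.08, SE 0.28, 0.129). CCND1, the cell cycle gene that FOXO factors repress, had the highest estimate with apigenin against control, 0.47. It was called higher there after quantile normalization (0.75, limma adjusted p 0.0155) and after the median shift (0.68, 0.0358).

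TNFSF10 had the lowest estimate of the list with apigenin against control. Its levels were 7.31, 7.22 and 6.82 with TNF plus apigenin, 7.09 and 7.10 with apigenin, 8.40, 8.33 and 8.001 with TNF, and 8.44, 8.51 and 8.31 in control. All 5 arrays with apigenin lay well below all 6 without it, and TNF made no separation. TNFSF10 fell by 1.33 with apigenin against control (SE 0.20, limma adjusted p 0.00305), by 1.13 with TNF plus apigenin against TNF (SE 0.18, 0.00564) and by 1.31 with TNF plus apigenin against control (SE 0.18, 0.00105). PINK1 read 5.52, 5.21 and 5.01 with TNF plus apigenin, 5.13 and 5.32 with apigenin, 5.93, 5.91 and 5.74 with TNF, and 6.24, 5.92 and 6.06 in control. It fell by 0.85 with apigenin (SE 0.20, adjusted p 0.0285) and by 0.83 with TNF plus apigenin (SE 0.18, 0.0204), both against control, and the apigenin call was lost without the first control array (-0.77, adjusted p 0.123), the third (-0.86, 0.0842) or the first apigenin array (-0.76, 0.201).

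Other genes of the list rose with TNF. In TNF against control 0 of 34 fell and 2 rose, where 0.473% of all genes were called higher. They were IL7R, the interleukin-7 receptor, and GADD45A, a DNA damage response gene. IL7R read 3.44, 3.56 and 3.40 with TNF plus apigenin, 3.56 and 2.91 with apigenin, 5.47, 5.79 and 5.21 with TNF, and 3.56, 2.91 and 3.40 in control. Only the TNF arrays were high. The low values included an equal value, 3.56152, on control array 1, apigenin array 1 and array 2 of TNF plus apigenin. The other low values differed from one another. The change with TNF against control was 2.20 (SE 0.22, limma adjusted p 7.21e-05), and TNF plus apigenin against TNF gave -2.02 (SE 0.22, 0.00043). GADD45A read 7.82, 7.93 and 7.53 with TNF plus apigenin, 6.79 and 7.21 with apigenin, 7.70, 7.90 and 7.87 with TNF, and 6.99, 6.92 and 6.93 in control, so both groups with TNF were high. It rose by 0.88 with TNF (SE 0.17, adjusted p 0.0317), and this call was lost in each of the 6 fits that left out a TNF or control array, with values between 0.84 and 0.94 and adjusted p-values up to 0.155.

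Between TNF plus apigenin and TNF, where 1.07% of all genes were called, 0 of the 34 rose and 2 fell, TNFSF10 and IL7R. Other settings added calls there. CCND1 rose after quantile normalization (0.63, limma adjusted p 0.0187), the median shift (0.62, 0.0355) and with array weights (0.74, 0.0279). PINK1 fell after quantile normalization (-0.65, 0.0156) and the median shift (-0.66, 0.0198). Against control, where 2.82% of all genes were called and 1.78% were called lower, the combination had 2 that rose, GADD45A and CCND1, and 4 fell, BCL6, PDK4, TNFSF10 and PINK1. CCND1, named after its values were seen, rose by 0.91 (SE 0.20, limma adjusted p 0.0217), and the call was lost without control array 2 or 3 or array 1 or 2 of TNF plus apigenin, at values between 0.75 and 0.95. The GADD45A call there (0.81) was likewise missing in 5 of the 11 fits with 1 array omitted and that of PINK1 in 4. Against apigenin alone limma called 0 of the 34, and 6 were higher at an unadjusted p under 0.05, which is near the share of all genes that were (14.1%).

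**Figure D4:**
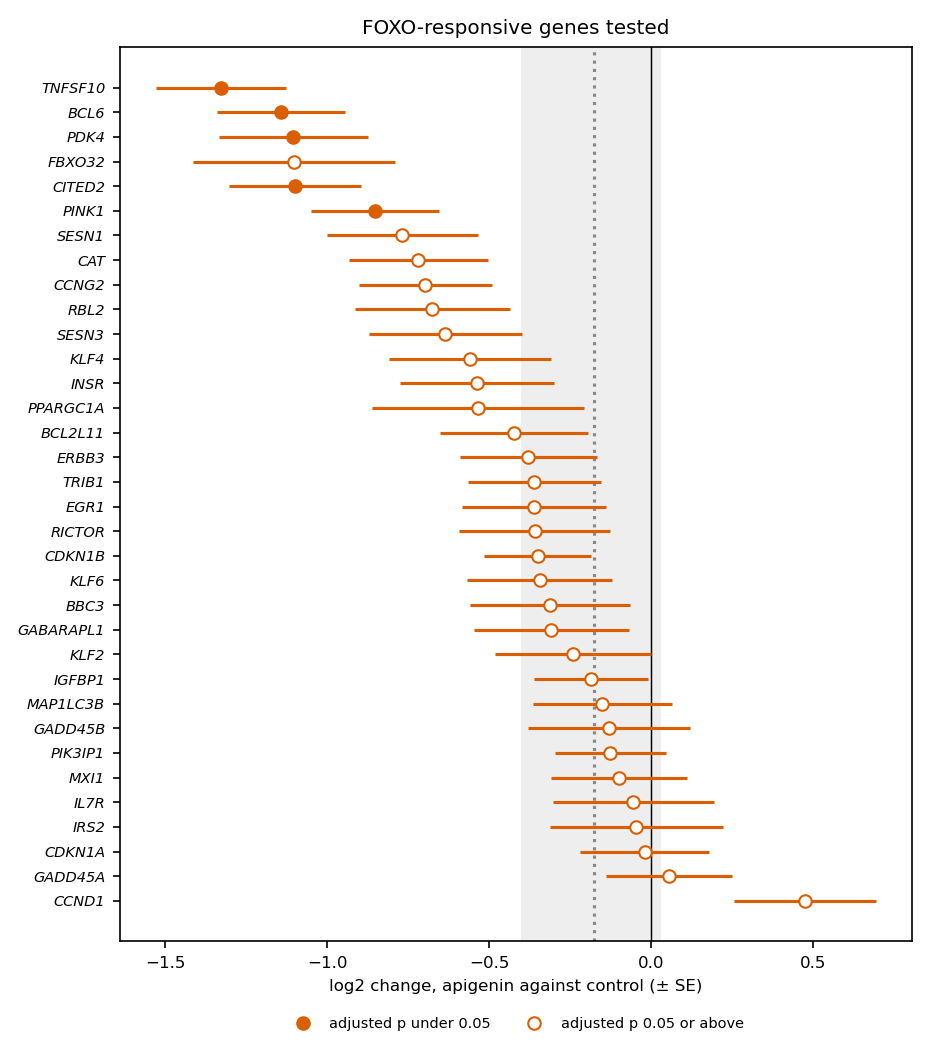
Log2 change with apigenin against control, ± SE, of the 34 tested FOXO-responsive genes, ordered by estimate, with filled points for an adjusted p under 0.05. The dotted line is the median of all tested genes (-0.18) and the grey band spans their 25th to 75th percentiles (-0.40 to 0.03). The filled points are TNFSF10, BCL6, PDK4, CITED2 and PINK1.

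The pathway that controls FOXO proteins was measured as well. Shares of its genes called are read against the 3.44% of all genes called lower with apigenin and the 1.78% called lower with TNF plus apigenin, both against control. Of 8 tested genes of the insulin receptor and its substrates, limma called 0 in any of the 5 comparisons, and IRS1, the paralog of IRS2, gave 0.04 (95% interval -0.42 to 0.50) with apigenin against control. Of 20 tested PI3K, phosphatase and AKT family genes, 1 fell with apigenin against control, PIK3R1, which encodes the p85α regulatory subunit of PI3K (-1.05, SE 0.21, adjusted p 0.0136). PIK3R1 read 6.11, 6.58 and 6.28 with TNF plus apigenin, 5.70 and 6.05 with apigenin, 6.53, 6.80 and 6.59 with TNF, and 7.14, 6.73 and 6.89 in control, with the apigenin arrays lowest. This call was lost without the first control array (-0.93, adjusted p 0.0697) or the first apigenin array (-0.87, 0.147). Of 27 tested genes for FOXO shuttling, modifying and partner proteins, 1 fell, in TNF plus apigenin against control. It was SFN, which encodes the epithelial 14-3-3σ (-0.73, SE 0.17, adjusted p 0.0362), named after its values were seen, and 6 of the 11 fits with 1 array omitted lost the call, at values between -0.63 and -0.78, as did the fit of only the compared arrays (adjusted p 0.0517). With 1 gene called in each set, nothing is read from these counts.

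Gene families of the responsive members were measured beside them, and the same 3.44% and 1.78% of all genes called lower are the background of their counts. Of 10 tested genes of pyruvate dehydrogenase and its kinases, PDK4 was the only one called, and with apigenin against control its paralogs PDK1 and PDK3 gave -0.77 (SE 0.22, limma adjusted p 0.0656) and -0.76 (SE 0.28, 0.149). PDK2 lay under the floor except on 1 control array. Of 5 tested genes of the BCL6 family and its corepressors only BCL6 was called, and BCL6B gave -0.21 (95% interval -0.65 to 0.24) with apigenin against control. Of 9 tested genes of the CITED family and its partners, CITED2 and CITED4 fell with apigenin. CITED4 (-1.03, SE 0.24, adjusted p 0.0293) read 6.30 and 6.40 with apigenin and 7.32, 7.50 and 7.32 in control. The CITED4 call was lost after quantile normalization (-0.71, adjusted p 0.0635), after the median shift (-0.82, 0.0646) and without any 1 of the control arrays or the first apigenin array (values between -0.97 and -1.06). CITED1 gave -0.15 (SE 0.23).

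Of 9 tested sestrin and GATOR2 genes limma called 0 in any of the 5 comparisons. With apigenin against control SESN2 gave -0.27 (95% interval -0.67 to 0.12) and SESN3 -0.64 (-1.14 to -0.13, limma adjusted p 0.149). Of 11 tested genes of the alpha-arrestin, thioredoxin and MondoA system, 1 fell with apigenin, ARRDC1 (-1.09, SE 0.21, adjusted p 0.0103), a gene of the family of TXNIP. ARRDC1 read 3.71 and 4.15 with apigenin and 5.24, 4.96 and 4.86 in control, and its call was lost without the first control array (-0.98, adjusted p 0.0566) or the first apigenin array (-0.87, 0.128). ARRDC2 gave -0.42 (SE 0.21) and ARRDC3 -0.02 (SE 0.20), and ARRDC4 and ARRDC5 did not pass the filter on low values, nor did IRS4 of the IRS genes.

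Of 15 tested Krüppel-like factors 1 fell with apigenin, where 3.44% of all genes did, namely KLF12, a transcriptional repressor, at -1.15 (SE 0.22, limma adjusted p 0.012), while KLF2 and KLF4 gave -0.24 (SE 0.24) and -0.56 (SE 0.25). The 14 tested family members other than KLF6 had estimates between -1.15 for KLF12 and -0.01 for KLF14, and KLF15 and KLF17 did not pass the filter. Most of all tested genes were below 0 there too, with a median of -0.18 and a 75th percentile of 0.03. KLF12 read 4.50 and 5.03 with apigenin and 6.11, 5.92 and 5.73 in control, and its call was lost without the first control array (-1.06, adjusted p 0.0611) or the first apigenin array (-0.89, 0.148). With both agents against control, where 1.78% of all genes were called lower, KLF12 (-0.82, adjusted p 0.0383) and KLF8 (-0.81, 0.0378) fell, with 6 and 5 of the 11 leave-out fits losing the call. There KLF12 also lost its call with no filter on low values (0.0509), as did FOXO6 (0.0538), and KLF8 with only the compared arrays (0.0711). No gene of these families was called higher in the 5 comparisons, where 0.574% to 3.66% of all genes were called in either direction. ARRDC3, not called, had 0.55 (SE 0.18, limma adjusted p 0.22) with TNF plus apigenin against TNF. When only the arrays compared were fitted, the apigenin calls of PINK1, PIK3R1, CITED4, ARRDC1, KLF12 and FOXO6 were lost, with adjusted p-values between 0.0605 and 0.161, and that of TNFSF10 was kept. Array weights ended the apigenin calls of CITED4 (adjusted p 0.113), PIK3R1 (0.0554), PINK1 (0.087), KLF12 (0.0719) and FOXO6 (0.143), and without the filter on low values that of FOXO6 was lost too (0.055).

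**Figure D5:**
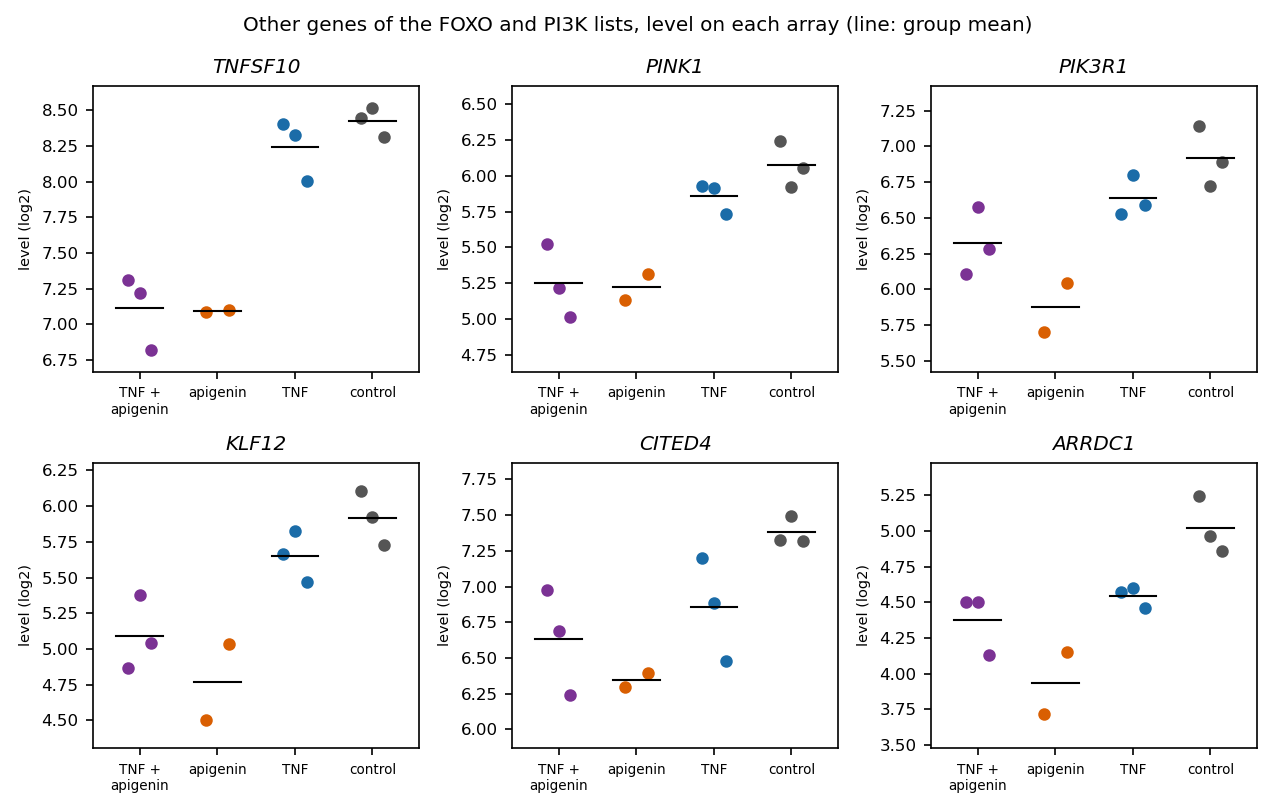
Level on each array (log2 of the probe set value) of 6 genes outside the members that fell with apigenin against control, by group, with a line at the group mean. Both apigenin arrays lie below all 3 control arrays in each panel, and TNFSF10 has the widest gap between arrays with and without apigenin.

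The tested genes whose levels over the 11 arrays were most like those of a called member, after each array was centred on its median, are given as a description. For BCL6 they were GTSE1 (Pearson r 0.983), CD14 (0.978) and HSPB1 (0.977). For PDK4 they were IKZF2 (0.948), BRINP2 (0.945) and WDR77 (0.933), and for CITED2 they were SRI (0.978), PLBD1 (0.973) and CYYR1 (0.97). The arrays of a group share their treatment, so these coefficients follow the differences between groups. Of these 9 genes, 6 fell with apigenin against control, from -1.15 for SRI to -2.06 for CD14 (limma adjusted p 0.000354), and the exceptions were GTSE1, IKZF2 and WDR77.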

How the data were processed

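The authors deposited log2 values of 53617 probe sets on 11 arrays. The submitters' processing notes name Affymetrix Expression Console. Its version, summarisation and genome build, and any scaling between arrays, were not given in the sources used here, and the log base was inferred from the range, 0.38 to 12.31. Of 25713 probe sets listed with a gene, 23871 had 1 symbol and 1842 several. The other 27904 had none. RefSeq gene numbers matched 22569 and updated 90 symbols. For 632 genes with several probe sets the brightest was used. Testing required 2 arrays at or above the floor of 2.53.

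Group means over all arrays were fitted with limma 3.58.1 in R 4.3.3 (lmFit, eBayes, 7 residual degrees of freedom, two-sided). P-values were adjusted by Benjamini-Hochberg over 15865 genes and called under 0.05. The code was tested on simulated data with independent noise and changes set only in the groups with apigenin. No array shift, TNF change or equal values were simulated. The number of arrays limits the precision, and the labels name no batch.

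The members and lists were chosen with earlier results of these data known. Named genes were the members, from each list up to 4 called genes by size per comparison (each single agent against control, and both agents against TNF), paralogs, and the 3 genes most like each called member. Alternatives were quantile normalization, a median shift, array weights, no or a stricter filter, the mean of all probe sets, eBayes with trend and robust, a replicate block, only the arrays compared, and leaving out each array. Some listed genes were not analysed here.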

Additional observations from a re-analysis of the deposited data

How the results depend on the processing

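Of 54 member results under 20 alternatives (1065 values), 1045 stayed on the same side of the threshold, 14 lost their call, 6 gained one and 0 of the called ones reversed. The members called in apigenin against control went to 0 with only the arrays compared, and ranged between 0 and 3 when 1 array was left out. With TNF plus apigenin against control 1 member was called with only the arrays compared, and 1 to 2 with 1 array left out. Between TNF plus apigenin and TNF 2 members were called after quantile normalization and 1 after the median shift, and 0 with any array left out. In TNF against control, TNF plus apigenin against apigenin and the interaction the members called were 0 in each of those fits.

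Counts over all genes moved more, for causes that were not tested. Quantile normalization, the median shift and array weights called 186, 182 and 221 genes in TNF against control (111 as reported), 510, 452 and 391 in TNF plus apigenin against TNF (169), and 1233, 998 and 1197 in TNF plus apigenin against control (447). Array weights called 207 in apigenin against control (581) and 32 in TNF plus apigenin against apigenin (91). Fitting only the arrays compared, with fewer residual degrees of freedom, called 103 and 16 in the same pair. The interaction had 4 calls as reported, 7 after quantile normalization, 10 after the median shift and 8 with trend and robust. With 1 array left out, calls ranged from 60 to 128 in TNF against control, 84 (without the first apigenin array) to 1290 (without the second) in apigenin against control, 85 to 197 in TNF plus apigenin against TNF, 206 to 538 in TNF plus apigenin against control, 18 to 598 in TNF plus apigenin against apigenin and 0 to 7 in the interaction.

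Over 15 pairs of arrays with the same replicate number, deviations from group means correlated between -0.24 and 0.28, with 4 over 0.1. Over 30 pairs with different numbers they correlated between -0.39 and 0.19, with 8 over 0.1. The 2 apigenin arrays deviate from their mean by equal and opposite amounts, so their pairs are not independent. Whether the replicate number pairs the arrays was therefore not settled. With the replicate number as a block, 106, 712, 174, 435, 73 and 0 genes were called in the 6 comparisons in the order TNF, apigenin, TNF plus apigenin against TNF, against control, against apigenin, and interaction. The members called stayed at 0, 3, 0, 2, 0 and 0, and of the other genes named KLF8 lost its call with TNF plus apigenin against control (adjusted p 0.0546).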

Other observations

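Equal values across arrays were not a property of FOXO1 alone. Of the 15865 tested genes, 6044 (38.1%) had the same deposited value on at least 2 arrays and 1228 (7.74%) on at least 4. Among the members, FOXO1 had 4 equal arrays and SESN1 had 2, a control and a TNF plus apigenin array, both at 4.92. The other 8 members had no repeated value. The cause was not tested.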
